A study of Mus musculus with 20 samples.

Results

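Transcripts of 8 genes that mark mast cells were followed in 20 whole mouse tracheas: the chymases Mcpt4 and Cma1, the carboxypeptidase Cpa3, the tryptases Tpsb2 and Tpsab1, the stem cell factor receptor Kit, and the IgE receptor subunits Ms4a2 and Fcer1a. The genes were taken by name, and every probe that the array assigned to one of them was used, whatever its signal. This gave 9 probes for 7 genes out of 41174 probes in all, and Tpsb2, which the array lists only under its older symbol Mcpt6, added 1 probe through its transcript accession. The mice were C57/Bl6 and 4 months old, and fell into 4 groups of 5: uninjured wild-type (WT control), uninjured Myd88 knockout (Myd88KO control), and both genotypes 3 days after the airway had been stripped of epithelium with 2% polidocanol, a detergent (WT injury and Myd88KO injury). Myd88 is the adaptor through which most Toll-like receptors and the interleukin-1 receptor family signal, and the study asked how its loss changes the trachea before and after injury. Knockout mice lacked the gene in every cell and had been back-crossed to the wild-type strain. They were bred knockout to knockout, while wild-type mice came from a separate colony of that strain. Genotype therefore cannot be told apart from colony, or from any donor genome left after the back-crossing. Both sexes were used in the study, and the labels do not give the sex of a sample.

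Mast cells are tissue-resident granulocytes that mature under stem cell factor acting on Kit. In the mouse, those of connective tissue, which include the cells in the wall of the trachea, fill their granules with chymases, tryptases and Cpa3 bound to heparin, whereas those of inflamed mucosa make Mcpt1 and Mcpt2. Crosslinking of IgE on the receptor formed by Fcer1a, Ms4a2 and Fcer1g releases the granules through the kinases Lyn and Syk. The receptors are shared with other cells: Kit is also made by melanocytes, interstitial pacemaker cells and some progenitors, Fcer1a by basophils, and Fcer1g by most myeloid cells. Gata2, which is required for mast cell differentiation, binds GATA motifs in several of these genes.

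The 250 bases before the transcription start were available for 6 of the 8 genes, from RefSeq on GRCm38.p6. Those of Mcpt4 (chr14:56062311-56062560, minus strand), Cma1 (chr14:55944676-55944925, minus strand) and Cpa3 (chr3:20242182-20242431, minus strand) are printed because the signals of these genes moved together from animal to animal, as described further on. Capitals mark the letters GATAA, or TTATC where the match lay on the other strand.
Mcpt4: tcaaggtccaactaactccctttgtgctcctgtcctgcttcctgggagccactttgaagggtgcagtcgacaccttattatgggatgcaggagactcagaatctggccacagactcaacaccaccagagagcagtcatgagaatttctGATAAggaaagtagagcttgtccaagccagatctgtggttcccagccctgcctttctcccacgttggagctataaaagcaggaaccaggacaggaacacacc
Cma1: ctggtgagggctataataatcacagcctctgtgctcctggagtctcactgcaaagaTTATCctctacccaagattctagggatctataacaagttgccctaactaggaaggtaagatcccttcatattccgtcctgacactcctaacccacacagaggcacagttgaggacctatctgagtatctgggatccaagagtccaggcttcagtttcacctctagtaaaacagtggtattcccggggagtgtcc
Cpa3: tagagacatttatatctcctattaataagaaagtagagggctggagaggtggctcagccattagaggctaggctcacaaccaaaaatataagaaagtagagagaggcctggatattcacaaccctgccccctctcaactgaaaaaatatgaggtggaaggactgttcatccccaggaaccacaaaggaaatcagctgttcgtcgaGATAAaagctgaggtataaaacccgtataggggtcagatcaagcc
The match began 102 bases before the start in Mcpt4, 194 in Cma1 and 45 in Cpa3. Fcer1a (chr1:173227230-173227479) had 1 match and Ms4a2 (chr19:11623720-11623969) had 3, while Kit (chr5:75574737-75574986) had 0. On either strand, 22.6% of 32851 promoter windows of this length held GATAA, against 5 of these 6 genes. The letters TATAAA, on either strand, were found in 12.4% of all windows. They lay 32 bases before the start in Mcpt4 and 31 and 242 bases before it in Cpa3, and 125 bases before it in Fcer1a. A match is a run of letters and was not tested as a binding site.

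Each trachea was hybridised to 1 one-colour Agilent array. Between 57.5% and 67.8% of spots were well above background on each array, and 26075 probes passed that mark on at least 10 of the 20 arrays and were tested. The 4 groups were spread evenly over 5 slides, each slide carrying 1 array of each group with the same replicate number. Scanning took place on 2 days. The Myd88 probe was not absent from knockout tracheas: its median log2 level was 2.08 in WT controls, 1.86 in Myd88KO controls, 2.67 after injury in WT and 2.04 after injury in Myd88KO. Where this probe lies relative to the deleted exons was not analysed here, so it did not check the genotype labels. A log2 level throughout is the log2 signal minus the 75th percentile of the same array, so that 0 is the level of that percentile and a difference of 1 is a doubling. Probes bind with unequal efficiency, and the level of one gene is therefore not set against that of another.

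Of the 8 genes, 6 were measured in the trachea. Both probes of Mcpt4, the brighter probe of Cma1 and the probes of Cpa3, Tpsb2, Kit and Fcer1a were well above background on all 20 arrays, and the dimmer Cma1 probe on 19. Tpsab1 and Ms4a2 were well above background on 0 of 20 arrays and were not tested. Tpsab1 signals lay between −7.53 and −6.20, and Ms4a2 signals between −7.18 and −4.96. C57BL/6 mice are known to carry a splice-site mutation that inactivates Tpsab1. Of the markers of mucosal mast cells, Mcpt1 was above background on 7 arrays and Mcpt2 on 3, which was too few for testing. The basophil protease Mcpt8 was above background on 0 arrays, as was the mast cell receptor Mrgprb2. In whole tissue, fewer mast cells and less RNA per mast cell cannot be told apart.

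**Figure D1:**
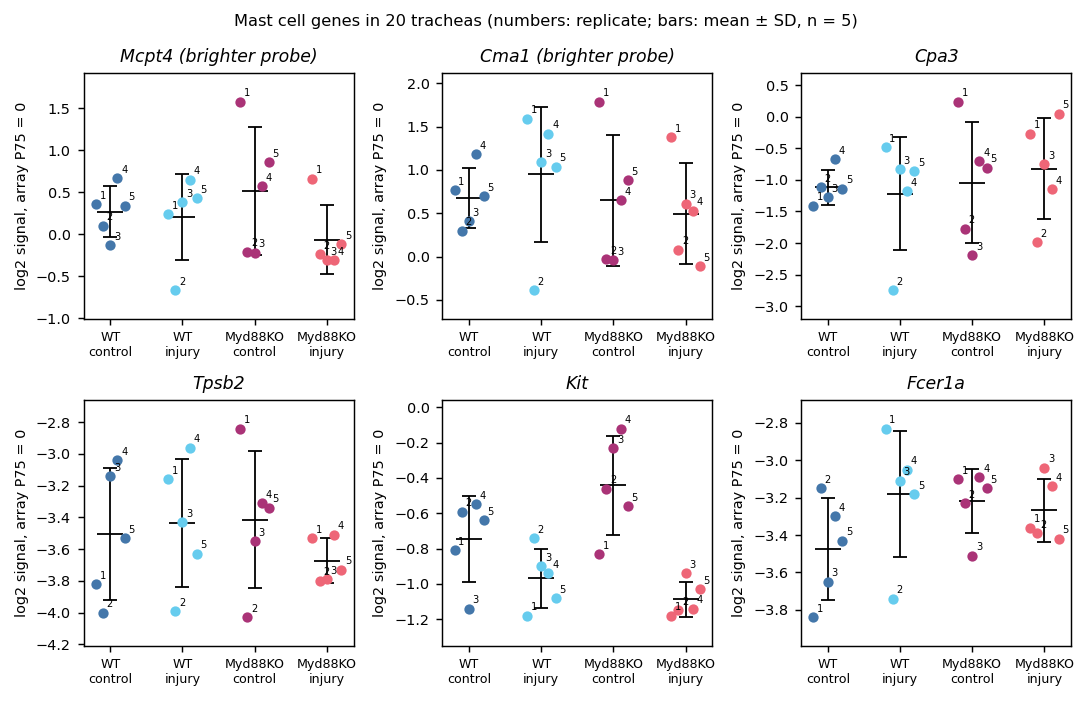
Log2 level (0 is the 75th percentile of the array) of 6 mast cell genes in each of 20 tracheas, by group; each point is 1 trachea with its replicate number, and the bars are the mean ± SD of 5. The groups overlap in every panel other than Kit, in which the 5 injured Myd88KO tracheas, from −1.18 to −0.94, lie below the 5 uninjured ones, from −0.83 to −0.12.

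Mcpt4, the main chymotrypsin-like chymase of connective tissue mast cells, gave on its brighter probe log2 levels of 0.36, 0.10, −0.13, 0.67 and 0.34 in the WT controls and 0.24, −0.67, 0.38, 0.65 and 0.43 in injured WT tracheas (replicates 1 to 5). In Myd88KO the values were 1.58, −0.21, −0.22, 0.57 and 0.86 without injury and 0.66, −0.24, −0.31, −0.31 and −0.12 after it. The groups overlapped, and the highest signal of all was that of Myd88KO control replicate 1. The group means, from high to low, were 0.52 ± 0.76 in Myd88KO controls, 0.27 ± 0.30 in WT controls, 0.21 ± 0.51 in injured WT and −0.06 ± 0.41 in injured Myd88KO (SD, n = 5). Each step in that order was smaller than the SD of either neighbour. The dimmer Mcpt4 probe kept the same order, with means of −0.87, −1.15, −1.20 and −1.51.

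Cma1, a chymase that is stored in the granule together with Cpa3, gave on its brighter probe 0.77, 0.30, 0.41, 1.18 and 0.70 in WT controls and 1.59, −0.39, 1.09, 1.42 and 1.04 in injured WT tracheas. In Myd88KO it gave 1.79, −0.03, −0.04, 0.65 and 0.88 without injury and 1.38, 0.08, 0.61, 0.53 and −0.11 after injury. Replicates differed more than groups: within the Myd88KO controls alone the signal spanned −0.04 to 1.79. Its means ran from 0.95 ± 0.78 in injured WT through 0.67 ± 0.34 in WT controls and 0.65 ± 0.76 in Myd88KO controls to 0.50 ± 0.58 in injured Myd88KO. No neighbours in that order differed by more than their SD. On the dimmer probe Myd88KO injury replicate 5 stood lowest, at −4.02, and was the 1 array on which that probe was not well above background.

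Cpa3, the carboxypeptidase of the same granule, had levels of −1.41, −1.12, −1.27, −0.67 and −1.14 in WT controls and −0.48, −2.75, −0.83, −1.18 and −0.86 in injured WT tracheas. In Myd88KO the levels were 0.24, −1.77, −2.19, −0.70 and −0.81 without injury and −0.27, −1.99, −0.75, −1.15 and 0.05 after it. Over the 20 tracheas this was a 7.93-fold range, the widest of the measured members. The WT controls were close together (SD 0.28) and the other 3 groups were not (SD 0.80 to 0.95), and the means, between −1.22 and −0.82, were closer than those SDs.

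Tpsb2, the tryptase of connective tissue mast cells, gave −3.82, −4.0, −3.14, −3.04 and −3.53 in WT controls and −3.16, −3.99, −3.43, −2.96 and −3.63 in injured WT tracheas. In Myd88KO it gave −2.84, −4.03, −3.55, −3.31 and −3.34 without injury and −3.53, −3.80, −3.79, −3.51 and −3.73 after it. All 4 groups overlapped, with means between −3.67 and −3.42. The injured Myd88KO tracheas were the least spread (SD 0.14, against 0.40 to 0.43 in the others).

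Kit was printed on 10 spots of each array, which were averaged. Its levels were −0.81, −0.59, −1.14, −0.55 and −0.64 in WT controls and −1.18, −0.74, −0.90, −0.94 and −1.08 in injured WT tracheas. In Myd88KO they were −0.83, −0.46, −0.23, −0.12 and −0.56 without injury and −1.18, −1.15, −0.94, −1.14 and −1.03 after it. The injured Myd88KO tracheas were all below the uninjured ones of that genotype, whereas in WT the groups overlapped. The means ran from −0.44 ± 0.28 in Myd88KO controls and −0.75 ± 0.24 in WT controls to −0.97 ± 0.17 in injured WT and −1.09 ± 0.10 in injured Myd88KO.

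Fcer1a, the subunit that binds IgE, gave −3.84, −3.15, −3.65, −3.30 and −3.43 in WT controls and −2.83, −3.74, −3.11, −3.05 and −3.18 in injured WT tracheas. In Myd88KO it gave −3.10, −3.23, −3.51, −3.09 and −3.15 without injury and −3.36, −3.39, −3.04, −3.14 and −3.42 after injury. The groups overlapped and their means lay between −3.47 and −3.18.

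Injury in wild-type mice was the comparison with the most calls over the whole array, and the mast cell genes had none. At an adjusted p under 0.01 (limma, Benjamini-Hochberg over all 26075 probes), 5.26% of all tested probes were called and 0 of the 8 mast cell probes. At an unadjusted p under 0.05 the same shares were 26.4% of all probes and 0 of 8, and the groups did not overlap for 12.6% of all probes and 0 of 8. The log2 differences lay between −0.22 for Kit and 0.29 for Fcer1a, with a median of 0.01 against 9.9e-05 over all tested probes. For the brighter probes, Mcpt4 differed by −0.06 (95% CI −0.72 to 0.60) and Cma1 by 0.27 (−0.52 to 1.07). Cpa3 differed by −0.10 (−1.05 to 0.86) and Tpsb2 by 0.07 (−0.41 to 0.55). Fcer1a had the lowest adjusted p of the 8, 0.281, and was higher on 4 of 5 slides. The interval that reached farthest from 0, that of the dimmer Cma1 probe, ended at 1.12, so a change of up to 2.17-fold in that gene was within the error of the design. The small difference of Cpa3 rested on 1 animal and became 0.28 without WT injury replicate 2.

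The same injury in Myd88KO mice gave 0 of 8 calls, against 0.376% of all tested probes. At an unadjusted p under 0.05 there were 2 of 8 mast cell probes, Kit and the dimmer Mcpt4 probe, and 19.5% of all probes. Kit differed by −0.65 (SE 0.15, 95% CI −0.96 to −0.34, adjusted p = 0.0254), a level 0.639 times that of the uninjured knockout. It was lower on 5 of 5 slides, by −0.80 on the first scan day (n = 3 pairs of arrays) and −0.41 on the second (n = 2). The groups did not overlap for Kit, as for 3.46% of all tested probes. Its adjusted p lay between 0.00289 and 0.159 over the alternatives run and fell under 0.01 with the scan day in the model (0.00957) and with weights for each array (0.00289). Without Myd88KO injury replicate 5, which raised the number of probes called over the array from 98 to 1075, Kit differed by −0.66 (adjusted p = 0.0130) and 0 of 8 mast cell probes were called. Mcpt4 differed by −0.58 on the brighter probe (−1.24 to 0.08, adjusted p = 0.322) and by −0.63 on the dimmer one (−1.25 to −0.02, adjusted p = 0.243), and was lower on 5 of 5 and 4 of 5 slides. Without Myd88KO control replicate 1 these became −0.31 and −0.39. Cma1 (−0.15 on the brighter probe), Cpa3 (0.22), Tpsb2 (−0.26) and Fcer1a (−0.05) had intervals on both sides of 0. The median over the 8 probes was −0.21, against −0.07 over all tested probes.

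**Figure D2:**
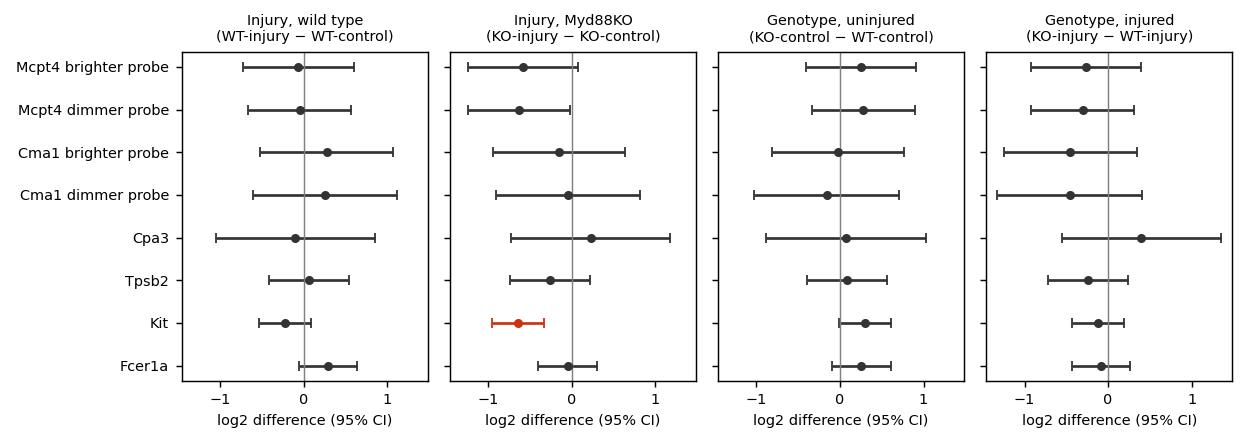
Log2 difference of each tested mast cell probe in the 4 comparisons, with its 95% confidence interval (limma; 5 arrays in each group); red marks an adjusted p under 0.05. The single red point is Kit in Myd88KO after injury, −0.65, and no point reached an adjusted p under 0.01.

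Uninjured Myd88KO and wild-type tracheas, in which the study looked for a standing effect of the missing adaptor, did not differ in a mast cell probe at the threshold. The call was met by 0 of 8, against 0.384% of all tested probes, and the adjusted p-values were 0.911 or higher. These values come from a fit without a term for slide, although same-numbered arrays of these groups were correlated. With slide as a block, 0 of 8 mast cell probes and 101 of all tested probes were called. An unadjusted p under 0.05 was reached by 0 of 8 and by 5.59% of all tested probes, and non-overlapping groups were seen in 0 of 8 and 2.51%. The largest difference, knockout minus wild type, was that of Kit at 0.31 (−0.01 to 0.62), higher on 4 of 5 slides. Mcpt4 differed by 0.25 on the brighter probe, and this was not stable across the slides: it was higher on 2 of 5, by 0.87 on average on the second scan day and by −0.17 on the first. Without Myd88KO control replicate 1 the difference was −0.02. Cma1 (−0.02), Cpa3 (0.08), Tpsb2 (0.09) and Fcer1a (0.26) also had intervals on both sides of 0.

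After injury, knockout minus wild type again gave 0 of 8 calls, against 0.38% of all tested probes, with adjusted p-values of 0.662 or higher. At an unadjusted p under 0.05 the shares were 0 of 8 and 12.5%, and groups did not overlap for 0 of 8 and 1.96%. Cma1 differed by −0.45 on the brighter probe (−1.24 to 0.34) and −0.46 on the dimmer one (−1.32 to 0.40). Cpa3 went the other way, by 0.40 (−0.56 to 1.35), and was higher in the knockout on 5 of 5 slides by 0.03 to 0.91. Without WT injury replicate 2 this became 0.016, and the value of the dimmer Cma1 probe became −0.083 without Myd88KO injury replicate 5. Mcpt4 differed by −0.27, Tpsb2 by −0.24, Kit by −0.12 and Fcer1a by −0.09. The injury response was also compared between the genotypes directly. No probe of the array was called in limma (0 of 26075, with 2703 at an unadjusted p under 0.05), and so 0 of 8 mast cell probes. An unadjusted p under 0.05 was reached by 0 of 8 mast cell probes and by 10.4% of all. For Kit the knockout difference minus the wild-type difference was −0.42 (−0.86 to 0.02, adjusted p = 0.495), so the injury responses of Kit were not shown to differ. For Mcpt4 this difference was −0.52 (adjusted p = 0.688), and for Cpa3, 0.32 (adjusted p = 0.884).

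For Cma1, Cpa3 and Tpsb2 the SD between animals of a group was larger than any difference between groups. For Mcpt4 it was smaller than the difference after injury in Myd88KO, −0.58 on the brighter and −0.63 on the dimmer probe. After the group means were removed, the within-group SD of Cpa3 was 0.78, higher than that of 92.1% of tested probes, and that of Cma1 was 0.64 on the brighter and 0.70 on the dimmer probe (85.7% and 89.2%). Mcpt4 had 0.52 and 0.49 (75.5% and 70.8%), and Tpsb2, at 0.37, was at the median of all tested probes. The receptors were steadier, with 0.25 for Fcer1a (19.3%) and 0.21 for Kit (10.5%). The Kit value averages 10 spots, which lowers the part of its spread that comes from spot noise.

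The proteases deviated together. Over the 20 arrays with group means removed, Mcpt4 and Cma1 had r = 0.899 (Spearman rho = 0.830), Mcpt4 and Cpa3 r = 0.797 (rho = 0.704), and Cma1 and Cpa3 r = 0.767 (rho = 0.702). With Tpsb2 the values were 0.746 for Cma1 (rho = 0.705), 0.669 for Mcpt4 (rho = 0.562) and 0.601 for Cpa3 (rho = 0.555). For comparison, the 2 probes of Mcpt4 had r = 0.944 with each other and the 2 of Cma1 had r = 0.817. Leaving out the arrays at either end, Myd88KO control replicate 1 and WT injury replicate 2, lowered these 6 values to between 0.395, for Cpa3 and Tpsb2, and 0.831, for Mcpt4 and Cma1. Removing slide as well as group left between 0.386 and 0.846 for the same pairs. These are descriptions over arrays that share slides and scan days, 15 pairs of genes were compared, and no p is given. Fcer1a followed the mean deviation of the 4 proteases at r = 0.573 (rho = 0.502). This became 0.396 without the same 2 arrays and 0.689 with slide removed too. Kit ran against that mean deviation at r = −0.429 (rho = −0.326), which became −0.11 without those 2 arrays and −0.34 with slide removed too.

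Part of the shared deviation went with the replicate number, which is also the slide. The mean deviation of the 4 proteases was below 0 on 4 of 4 arrays numbered 2, from −1.08 to −0.26, and above 0 on 4 of 4 arrays numbered 5, from 0.01 to 0.22. Arrays numbered 1 were the highest on average, at 0.48, and ran from −0.10 to 1.01. The number and slide cannot be told apart, and whether same-numbered animals shared a litter or a day of dissection is not given in the sources used here. Arrays numbered 2, 3 and 4 were scanned on the first day and those numbered 1 and 5 on the second. The difference between these 2 sets of numbers cannot be told apart from scan day. With all 4 arrays numbered 2 left out, a choice made after these values were seen, 0 of 8 mast cell probes were called in each comparison. Over all tested probes, that setting called 342 for injury in WT and 1 for injury in Myd88KO. It called 62 and 66 for genotype without and after injury, and 0 for the difference between the responses. With so few calls over the array, the 0 of 8 says little about the mast cell genes.

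**Figure D3:**
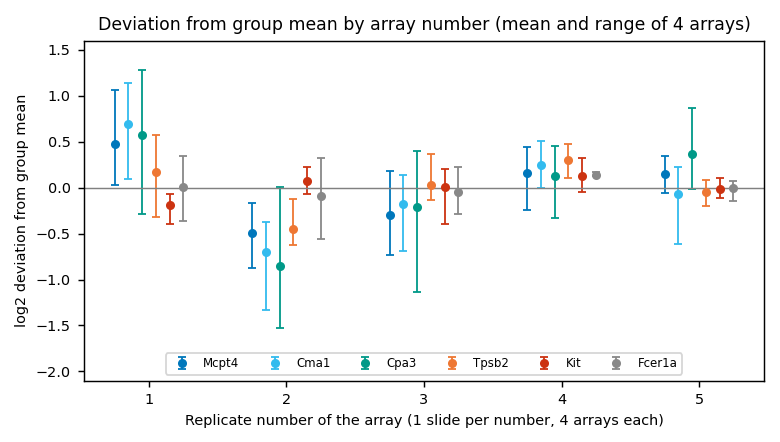
Log2 deviation from the group mean of 6 mast cell genes by replicate number; points are the mean of the 4 arrays with that number (1 of each group, all on 1 slide) and bars run from the lowest to the highest. All 4 arrays numbered 2 lie below their group mean for Mcpt4, Cma1 and Tpsb2, and Cpa3 averages −0.85 there, whereas Kit averages 0.08.

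The genes whose signal followed the proteases most closely were looked for among all tested probes, by the correlation over the 20 arrays of deviations from the group mean. The median over all probes was 0.04, and 16 probes reached 0.8. Those among the 10 closest genes that are reported here were Slc7a10 (r = 0.890), Zfp81 (0.884), Acvr1c (0.857), a transcript listed as 2810013C04Rik (0.820), Retnla (0.819), Hars2 (0.818), Hoxd4 (0.815), Lncbate1 (0.812) and Zfp426 (0.811). Among them, Slc7a10 is an amino acid transporter of white fat cells, Acvr1c an activin receptor of fat cells, Lncbate1 a long non-coding RNA of brown fat, and Retnla a secreted protein of fat and of alternatively activated macrophages. The 10 were chosen as the highest of 26075 probes, and their values are a description only.

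Fat cell genes moved with the proteases. Of 8 adipocyte genes fixed as a list, 7 were tested (Lep was not), and their mean deviation followed that of the 4 proteases at r = 0.809 (rho = 0.818), 0.718 without the 2 arrays farthest from the median and 0.657 with slide removed too. The mean level of the adipocyte genes spanned 4.18 to 5.06 in WT controls, 4.74 to 5.58 in Myd88KO controls, 3.31 to 5.01 in injured WT and 3.90 to 5.28 in injured Myd88KO. WT injury replicate 2 was the lowest array on both measures, with deviations of −1.02 for adipocyte genes and −1.08 for the proteases. The highest were Myd88KO injury replicate 1 for adipocyte genes, at 0.96, and Myd88KO control replicate 1 for the proteases, at 1.01. For brown fat genes r was 0.615 (0.233 with slide removed too) and for fibroblast genes 0.405 (0.069 without the 2 arrays, 0.374 with slide removed too). For skeletal muscle genes it was 0.244 (0.486 with slide removed too) and for macrophage and dendritic cell genes 0.084. Genes for mast cell mediators and storage had 0.584 (0.123 with slide removed too). Airway basal genes had −0.486 and smooth muscle genes −0.477 (−0.164 and −0.227 with slide removed too). Of the lists for other cell types, that of basophil genes had the highest r, 0.896, but it holds Cpa3, which is 1 of the 4 proteases, and Fcer1a. The adipocyte deviation was added as a covariate after this relation was seen. It had its group means removed, so it could change the error of a group difference but not the difference itself. Differences between groups in adipocyte signal were therefore not adjusted for. With this covariate, 0 of 8 mast cell probes were called in each comparison. Over all 26075 tested probes the calls were 1737 for injury in WT and 241 for injury in Myd88KO. They were 122 and 121 for genotype without and after injury, and 0 for the difference between the responses. The tracheas were trimmed of surrounding connective tissue, and the part of that tissue in these values was not tested.

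**Figure D4:**
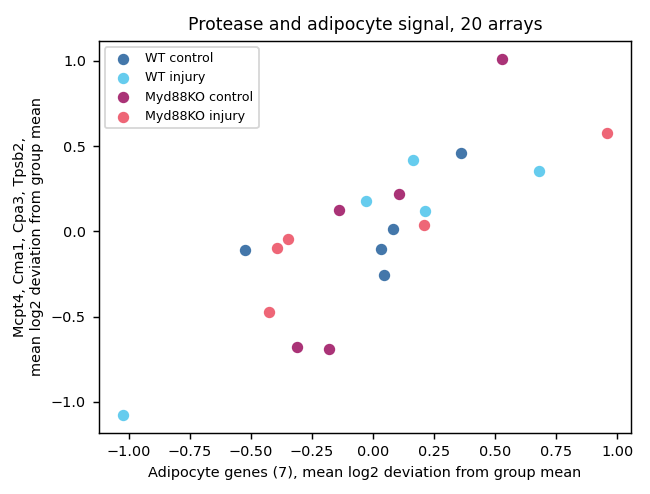
Mean log2 deviation from the group mean of Mcpt4, Cma1, Cpa3 and Tpsb2 (vertical) against that of 7 adipocyte genes (horizontal); each of the 20 points is 1 trachea, coloured by group. The points run from WT injury replicate 2 at the lower left (−1.02, −1.08) to Myd88KO control replicate 1 (0.53, 1.01) and Myd88KO injury replicate 1 (0.96, 0.58).

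Genes that act around mast cells were read from fixed lists, each gene by its brightest tested probe. Of the signalling genes of the high-affinity IgE receptor, 9 of 16 tested rose after injury in wild type, where 3.24% of all tested probes rose, and 0 of 16 in Myd88KO (0.134%). The subunit Fcer1g rose from 0.94 ± 0.38 to 3.42 ± 0.80 (SD, n = 5), a log2 difference of 2.48 (SE 0.44, adjusted p = 0.00167). The kinases Syk (1.86), Btk (1.95) and Lyn (0.73), the adaptors Lcp2 (2.30) and Lat2 (2.09), the exchange factor Vav1 (1.95), the phospholipase Plcg2 (0.97) and the inhibitory phosphatase Inpp5d (1.83) also rose, with adjusted p between 0.000934 and 0.00946. All 9 were higher after injury on 5 of 5 slides. Fcer1a, whose difference was 0.29, did not pass the test, and neither did the adaptor Lat (−0.30), Fyn (0.05) or Plcg1 (0.09). In Myd88KO the difference of Fcer1g was 0.95 (0.02 to 1.89, adjusted p = 0.244), and the difference between the genotypes' responses, −1.52, had an adjusted p of 0.433. Most of the 9 are genes that macrophages and neutrophils also use, and markers of both were read beside them. Of the macrophage and dendritic cell genes, 5 of 9 tested rose in WT, among them Cd68 by 3.27 and Emr1 by 2.03, and their mean level went from between 0.51 and 0.97 in controls to between 1.69 and 2.63 after injury. These 5 calls became 2 without WT control replicate 2 or 4, without WT injury replicate 1 or 5, and without all arrays numbered 2, and 3 without WT control replicate 1, 3 or 5 or WT injury replicate 2. Of the neutrophil genes, 1 of 6 tested rose in WT, Mmp9 by 2.22 (adjusted p = 0.00419), and their mean level lay between −0.90 and 1.43 in controls and between 1.57 and 4.09 after injury. In Myd88KO, 0 of 9 macrophage and dendritic cell genes and 0 of 6 neutrophil genes were called higher, against 0.134% of all tested probes. The median difference of the macrophage and dendritic cell genes was 1.55 in WT and 0.62 in Myd88KO, and that of the neutrophil genes 2.73 and 1.83. The difference between the responses was called for 0 of the 16 signalling genes, and for 0 of 9 and 0 of 6 of these markers. The part of either cell type in the rise was not tested. The 9 calls became 4 without WT injury replicate 1, 5 without WT control replicate 2, 6 without WT control replicate 4 or WT injury replicate 5, and 3 without all arrays numbered 2. With weights for each array, 1 of the 16 was called higher in Myd88KO, and so was 1 of the 9 macrophage and dendritic cell genes.

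**Figure D5:**
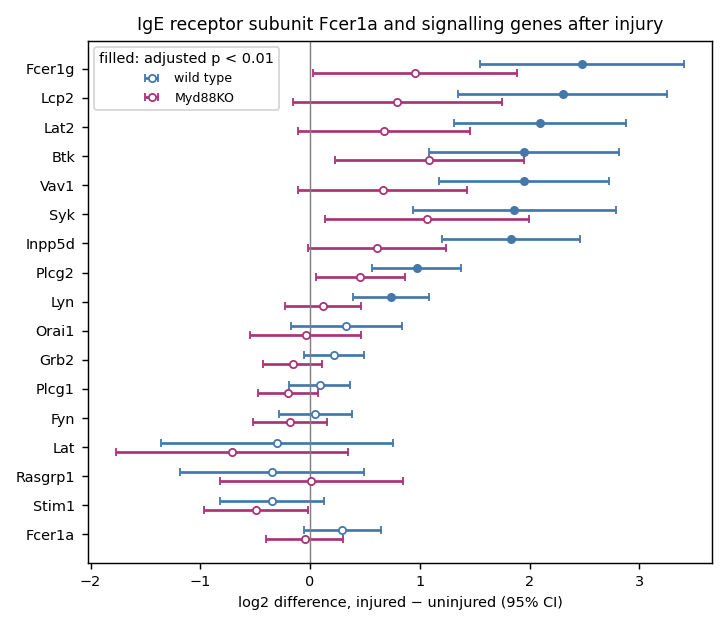
Log2 difference, injured minus uninjured, of Fcer1a and 16 genes of IgE receptor signalling in wild type (blue) and Myd88KO (purple), with 95% confidence intervals (limma; 5 arrays in each group); filled points have an adjusted p under 0.01. The 9 filled points are all in wild type, from Lyn at 0.73 to Fcer1g at 2.48, and Fcer1a, at the foot, is open at 0.29 and −0.05.

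Surface receptors that mast cells use were read in the same way. In wild type, 5 of 12 tested rose after injury, against 3.24% of all tested probes: the complement receptor C3ar1 (3.28), Csf2rb (2.91), the shared signalling chain of the interleukin-3, interleukin-5 and GM-CSF receptors, Il4ra (1.38), Itgb7 (1.06) and Il3ra (0.97), with adjusted p between 0.00103 and 0.00987. The 5 calls became 3 without WT control replicate 2 or replicate 4, and 1 without all arrays numbered 2. Il1rl1, the interleukin-33 receptor, which signals through Myd88, differed by −0.18 in WT (adjusted p = 0.706) and 0.14 in Myd88KO (adjusted p = 0.816). The prostaglandin receptor Ptger3 differed by −0.61 in WT and by −1.47 in Myd88KO (adjusted p = 0.0166). In Myd88KO, 0 of 12 were called, against 0.376% of all tested probes. This count changed with the setting: 1 of 12 was called lower without Myd88KO injury replicate 1 or 5, with scan day in the model and with the adipocyte covariate. The same held at a threshold of 0.05 and by the methods' one-way test before adjustment. With weights for each array, 2 were called higher and 1 lower.

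Among genes for mediators and granule storage, 1 of 11 tested rose in wild type, where 3.24% of all tested probes rose. This was Alox5ap (1.86, adjusted p = 0.00413), which serves leukotriene synthesis and is also made by other myeloid cells. The call was lost without WT control replicate 2 or 4, without WT injury replicate 1 or 5, and without all arrays numbered 2. The granule proteoglycan Srgn differed by 1.77 (adjusted p = 0.0176), Ndst2, an enzyme of heparin synthesis, by 0.45 (adjusted p = 0.0105), and Hdc, which makes histamine, by −0.91 (−2.07 to 0.25, adjusted p = 0.315). In Myd88KO 0 of 11 were called, against 0.376% of all tested probes, and Hdc differed by −0.51. Of 8 tested genes for growth factors, survival and type 2 cytokines, 1 rose in WT, Tgfb1 (1.44, adjusted p = 0.00545), and 0 in Myd88KO, against the same 3.24% of all tested probes in WT and 0.134% in Myd88KO. That call was lost when WT control replicate 1, 2 or 4 or WT injury replicate 1, 2 or 5 was left out.

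Of the ligand of Kit and the transcription factors of mast cells, 0 of 10 were called in either genotype, against 5.26% of all tested probes in WT and 0.376% in Myd88KO. In Myd88KO, 1 of 10 was called lower with weights for each array, at a threshold of 0.05, and by the methods' one-way test before adjustment. In WT, 1 of 10 was called lower at a threshold of 0.05. Kitl, which encodes stem cell factor, differed by −1.13 after injury in WT (−1.77 to −0.49, adjusted p = 0.0192) and by 0.07 in Myd88KO (adjusted p = 0.930). Gata2 differed by 0.00 in WT (−0.27 to 0.26) and by −0.54 in Myd88KO (−0.80 to −0.27, adjusted p = 0.0276). The difference between the genotypes' responses was 1.20 for Kitl and −0.54 for Gata2, each with an adjusted p of 0.391. Mitf differed by 0.01 in WT and −0.28 in Myd88KO. Other cells that carry Kit were read through their own markers. The deviation of Kit followed the interstitial cell genes Ano1 and Etv1 at r = 0.538 (rho = 0.573, 0.396 without 2 arrays), lymphocyte genes at 0.573 (rho = 0.541, 0.405 without 2 arrays) and melanocyte genes at 0.288. With slide removed too, these were 0.616, 0.623 and 0.492. Airway secretory and ciliated genes had 0.162 and 0.254, and 0.505 and 0.453 with slide removed too. Fibroblast genes ran against Kit at −0.500 and neutrophil genes at −0.442. After injury in WT, where Kit differed by −0.22, 1 of the 2 interstitial cell genes was called lower, as were 528 of all 26075 tested probes. Ano1 fell by 0.74 (adjusted p = 0.00715), and Etv1 differed by −0.51 (adjusted p = 0.194). After injury in Myd88KO, Ano1 differed by −0.24 (adjusted p = 0.456) and Etv1 by −0.55 (adjusted p = 0.233). Their part in the Kit signal was not tested.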

How the data were processed

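The authors deposited, per the file headers, 1 Agilent Feature Extraction 9.5.1.1 scanner file for each of 20 one-colour arrays, and the processed intensity (background-subtracted, detrended signal) was used. A value table deposited by the authors, also of intensity, matched the scanner values to a ratio of 0.995 to 1.005 and served as an alternative. Control spots and spots marked as outliers (1960 values) were left out, spots of one probe were averaged, and log2 values were scaled to the 75th percentile of each array. Probes well above background on at least 10 of 20 arrays were tested with limma 3.58.1 (R 4.3.3) on 4 group means over all arrays, with Benjamini-Hochberg adjustment within each of 5 contrasts and a threshold of 0.01. Intervals are 95%. The script was tested on simulated data. Tables used Python 3.11.15 and pandas 2.3.3. The number of arrays limits precision. Each mouse was measured on 1 array, so p-values measure the spread between arrays of a group. That spread holds differences between mice together with those of hybridisation, slide and scan day.

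Groups came from the sample titles. Arrays with the same replicate number shared a slide. Among uninjured arrays their deviations from the group means correlated at 0.252 to 0.476 (5 of 5 pairs over 0.1), so that the numbers pair these 2 groups. The main fit had no term for slide, so its intervals and p-values for these 2 groups ignore that pairing. Slide as a block was an alternative. The 8 genes, and the lists of other genes, were chosen with earlier results of these data known. The genes named are the 8 members, the 10 closest to the proteases, called list genes, and Kitl, Gata2, Hdc, Fcer1g, Mcpt8, Mrgprb2, Il1rl1 and Mitf. Others named with values (Mcpt1, Mcpt2, Lat, Fyn, Plcg1, Ptger3, Srgn, Ndst2, Ano1, Etv1) were picked after their values were seen. Symbols were updated through RefSeq. Probe coordinates in the files name no genome build and are not printed. A gene among those closest to the proteases is not reported here.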

Additional observations from a re-analysis of the deposited data

Results flagged for a closer look

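Over 32 groups of 5 arrays (8 mast cell probes in 4 groups), 2 held an array whose gap to its nearest neighbour exceeded 0.71 of the range of the group, where chance gives about 1 in 20. On the brighter Cma1 probe, WT injury replicate 2 was lowest at −0.39, with the next array at 1.04 (gap 0.723 of the range). On the brighter Mcpt4 probe, Myd88KO injury replicate 1 was highest at 0.66, with the next at −0.12 (gap 0.798 of the range). These were also the arrays with the lowest and highest adipocyte deviation of all 20, and the part of that in either value was not tested.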

How the results depend on the processing

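The 40 differences of the mast cell probes (8 probes, 5 contrasts) were recomputed under 15 alternatives and without each of 20 arrays in turn. With only the groups compared and by both of the methods' one-way tests there were 32, since these give no difference between the responses, and with only probes above background on all arrays 35, without the dimmer Cma1 probe. The single change of call was Kit after injury in Myd88KO, which made 1 of 8 probes called with scan day as a block, with array weights, by the methods' one-way test before adjustment, and at a threshold of 0.05. Leaving out 1 array changed no mast cell call. With the replicate block (slide), calls over all tested probes were 1543, 143, 101, 112 and 1 for injury in WT, injury in Myd88KO, genotype without injury, genotype after injury, and the difference between the responses, against 1372, 98, 100, 99 and 0, and 0 of 8 mast cell probes were called in each. Same-numbered arrays had a median correlation of deviations of 0.242 (−0.262 to 0.476 over 30 pairs, 23 over 0.1), and 10 of 20 arrays correlated best with their own number. Within each comparison other than that of the uninjured genotypes, at least 1 pair was under 0.1, and there the numbers were not taken as pairs.

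Directions turned in 12 instances outside the leaving out of arrays, in differences no larger than 0.40. With the median in place of the 75th percentile, WT injury gave 0.0049 and 0.018 for the brighter and dimmer Mcpt4 probes, Myd88KO injury 0.0021 for the dimmer Cma1 probe, and genotype without injury 0.0017 for the brighter one. Quantile normalization gave Fcer1a 0.0064 after injury in Myd88KO. Array weights gave 0.23 for the dimmer Cma1 probe and 0.014 for Fcer1a after injury in Myd88KO, −0.18, −0.030 and −0.074 for Cpa3, the brighter Mcpt4 probe and Tpsb2 by genotype without injury, −0.055 for Cpa3 by genotype after injury, and 0.084 for the dimmer Cma1 probe in the difference between the responses. Without all arrays numbered 2, added after the data were seen, WT injury gave 0.28 for Cpa3 and 0.12 for both Mcpt4 probes, and genotype without injury 0.052 for the brighter Cma1 probe. Some differences also turned without 1 array. For injury in WT they ran from −0.28 to 0.28 for Cpa3, from −0.17 to 0.16 for the Mcpt4 brighter probe, from −0.18 to 0.16 for the Mcpt4 dimmer probe, from −0.055 to 0.21 for Tpsb2. For injury in Myd88KO they ran from −0.38 to 0.13 for the Cma1 brighter probe, from −0.22 to 0.33 for the Cma1 dimmer probe, from −0.060 to 0.55 for Cpa3. For genotype without injury they ran from −0.31 to 0.15 for the Cma1 brighter probe, from −0.36 to 0.015 for the Cma1 dimmer probe, from −0.25 to 0.36 for Cpa3, from −0.016 to 0.43 for the Mcpt4 brighter probe, from −0.055 to 0.24 for Tpsb2. For genotype after injury they ran from −0.23 to 0.00047 for Fcer1a. For the difference between the responses they ran from −0.58 to 0.076 for the Cma1 dimmer probe, from −0.059 to 0.64 for Cpa3. The cause was not tested.

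Calls over all tested probes after injury in WT became 2106 with scan day as a block, 2597 with array weights, 3800 by the methods' test before adjustment, 3316 at 0.05 and 342 without all arrays numbered 2. In Myd88KO they became 56 with the median, 60 with no filter, 360 with scan day, 0 with only the groups compared (4346 at an unadjusted p under 0.05), 1900 with array weights, 0 and 1276 by the methods' test after and before adjustment, 841 at 0.05, 1 without all arrays numbered 2 and 241 with the adipocyte covariate. For genotype without injury they became 63 with probes above background on all arrays, 180 with array weights, 46 and 743 by the methods' test, and 62 without all arrays numbered 2. For genotype after injury they became 63, 38 with only the groups compared, 21 and 602 by the methods' test, and 176 at 0.05. For the difference between the responses they became 1, 2 and 3 with slide, scan day and array weights. Leaving out 1 array gave 665 to 1843, 6 to 1075, 73 to 108, 77 to 120, and 0 to 3 calls for the 5 contrasts in the order above. The highest in Myd88KO, 1075, was without injury replicate 5. Background limits Tpsab1 and Ms4a2, which gave no tested value.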
